A study of Mus musculus with 18 samples.

Results

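MRTFA is a coactivator that binds monomeric actin and, once actin polymerises, enters the nucleus and works with the DNA-binding factor SRF on genes of the actin cytoskeleton. The comparison described here is the expression of MRTFA carrying the substitution Y238A, described by the submitters as unable to bind SRF properly, against an empty retroviral vector in AT-3 cells. AT-3 is a mouse mammary carcinoma line derived from a tumour of a mouse with a mammary polyoma middle T transgene. The members were all genes with enough counts in the 3 Y238A and 3 empty vector libraries of AT-3, which left 14775 of the 32286 entries in the counts table, and 6 of the 18 libraries of the series.

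The series holds 6 groups of 3 libraries. These are Y238A MRTFA, wild-type MRTFA and the empty vector pRetroX, each in AT-3 and in E0771, another mouse mammary carcinoma line. Every group, the empty vector cells included, had received doxycycline, the inducer of the vector, at 2 µg/ml for 48 h, so no group shows the cells without the drug. RNA was sequenced as mRNA libraries and the values are counts per gene, given below as CPM, which are counts scaled to library size and by edgeR's factors between libraries. The labels name no separate cultures beyond the design text's replicate sets, and do not say whether transduced cells were a pool or a clone. The p-values therefore measure the spread between libraries, which may be technical, and effects of the construct and of the culture that carries it cannot be told apart.

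The 6 libraries held between 81963607 and 100630270 counts. Replicates of a group differed by more than counting noise, so none was counted as a copy of another. The epithelial markers Epcam, Cdh1, Krt8 and Krt18 lay under 1 CPM in all 6 libraries although the line is labelled mammary carcinoma. Krt19, another epithelial marker, had 75.4, 66.0 and 63.0 CPM in Y238A libraries and 4.07, 3.44 and 3.88 CPM in empty vector libraries. Gata3 of the epithelial list had group means of 154.7 CPM with Y238A and 143.2 CPM with empty vector. The mesenchymal intermediate filament gene Vim was abundant, with group means of 2847 CPM in Y238A cells and 2586 CPM in empty vector cells. The leukocyte genes Ptprc, Adgre1 and Cd3e were at or near 0. Some transcripts abundant in wild-type MRTFA cells and nearly absent with empty vector were present in the Y238A libraries. Over 30 genes with more than 10 CPM in the wild-type MRTFA libraries and less than 0.02 CPM in the empty vector libraries, Y238A replicates 1, 2 and 3 held a median 1.26%, 0.263% and 0.107% of the wild-type level. The genes were chosen for their near absence from empty vector libraries, so the same share there is no comparison. At these shares, carried-over transcripts would make up at least 50% of the Y238A level in 15 of the 3780 genes called higher, or 0.397%. Carry-over below means this estimate, a gene's wild-type level multiplied by the share of the library, which can exceed the measured level. Whether these transcripts were carried over or expressed by the Y238A cells themselves was not tested.

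The data show a wide change. Of the 14775 genes tested, 3780 were higher in Y238A cells (25.6%) and 3968 were lower (26.9%), so that 52.4% passed an adjusted p of 0.05 in edgeR's quasi-likelihood test with Benjamini-Hochberg adjustment over all genes. The libraries of the groups did not overlap for 9783 genes (66.2%). Most changes were small. The median absolute log2 fold change of the genes called was 0.46, and 1128 genes were higher and 509 lower by 2-fold or more, 404 and 102 of them by 4-fold or more. The median over all genes tested was 0.0018. Without Y238A replicate 1, which had the highest estimated carry-over, 3398 of the higher and 3549 of the lower genes kept their call and 0 changed direction. The gene lists described below are to be read beside these shares. In 11 of the 29 lists with 10 or more genes tested, the higher and the lower share both lay within 10 percentage points of those over all genes. These were integrins and focal adhesion, laminins, matrix proteases, epithelial genes, mesenchymal genes, TGF-beta and BMP signalling, calcium pumps and channels, sodium-potassium pump and cotransport, glycolysis, stress responses and p53 targets. Their counts are not results about the lists. Since the libraries measure the average of a culture, fewer cells of a kind and less RNA per cell cannot be told apart.

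**Figure D1:**
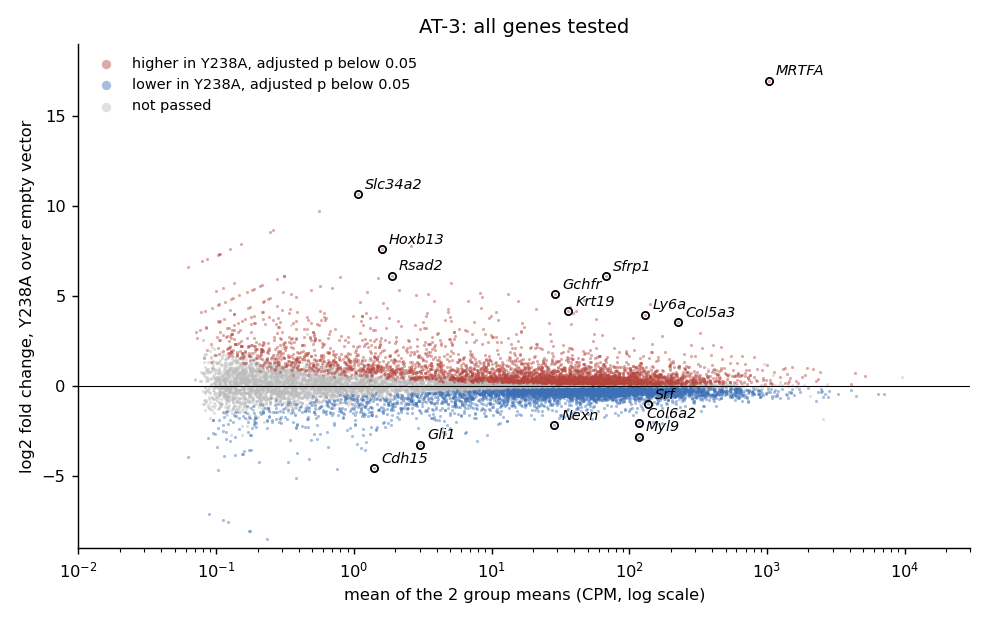
Each point is 1 of the 14775 genes tested, with the mean of the Y238A and empty vector group means in CPM on a log axis and the log2 fold change of Y238A over empty vector on the vertical axis; red genes were higher and blue genes lower past an adjusted p of 0.05, and grey genes did not pass. The construct lies far above all others, and more genes were higher (1128) than lower (509) by 2-fold or more.

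The construct was present where the labels place it. Its own entry, named MRTFA in the table, held 2279, 1986 and 1923 CPM in the Y238A libraries, or 623966 counts, against 0.0226, 0.0 and 0.0242 CPM in the empty vector libraries, or 4 counts in all. The mouse gene Mrtfa (chr15:81012281-81190757, GRCm38) had 163.8, 173.4 and 166.5 CPM with Y238A and 156.8, 157.2 and 155.7 CPM with empty vector. Its log2 fold change of 0.10 ± 0.04 (SE) passed narrowly (adjusted p = 0.0431) and lost its call with DESeq2 (adjusted p = 0.0965) and in 8 other alternative analyses, with adjusted p up to 0.319 without empty vector replicate 3. Mrtfb, the paralogue of MRTFA, fell by 0.25 ± 0.05 on the log2 scale (adjusted p = 0.000694).

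Srf, the gene of the partner factor (ENSMUSG00000015605, chr17:46548329-46556175), fell. It stood at 95.4, 86.7 and 91.0 CPM in Y238A libraries and at 182.4, 175.9 and 188.0 CPM in empty vector libraries. Every Y238A library lay well below every empty vector library, and the log2 fold change was -1.0 ± 0.07 (adjusted p = 2.24e-09). The ternary complex factors are the other family of SRF partners and were looked up after the results were seen. Elk1 rose by 1.02 ± 0.06 (adjusted p = 5.45e-11), while Elk3 (-0.16, adjusted p = 0.0697, and 0.0422 with DESeq2) and Elk4 (0.13, adjusted p = 0.14, and 0.00774 in the 6 libraries alone) did not pass, and Myocd, the muscle coactivator of the MRTF family, had 0 counts in all 6 libraries.

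Genes of the cytoskeleton that MRTF and SRF are known to control were more often lower than higher. Of 40 such genes, all tested, 27 were lower and 5 higher, beside 26.9% lower and 25.6% higher among all genes, and the list's median log2 fold change was -0.33. Without Y238A replicate 1, 26 were lower and 5 higher. The changes were spread over the parts of the actin system. Actb, the main cytoplasmic actin, had 5567, 5324 and 5466 CPM with Y238A and 7336, 7280 and 7451 CPM with empty vector (log2 -0.43, adjusted p = 1.56e-07). Vcl, encoding vinculin of cell-matrix adhesions, had 248.4, 234.4 and 242.2 CPM with Y238A and 358.0, 357.6 and 361.3 CPM with empty vector (log2 -0.57, adjusted p = 9.93e-10). In both genes the groups were apart by far more than the spread of replicates. Flna, an actin crosslinker (log2 -0.58), Zyx of focal adhesions (-0.55), Vasp, which aids filament growth (-0.85), Tagln2 (-0.90) and the PDZ and LIM protein gene Pdlim5 (-1.0) fell as well, with adjusted p at or below 7.47e-07. The higher genes included Lima1 (0.60), Tuft1 (0.46), Myl12a (0.15) and Myh9, the heavy chain of a non-muscle myosin (0.13). Myh9 lost its call without Y238A replicate 3 (adjusted p = 0.119) and without empty vector replicate 3 (0.141), and Myl12a without the 4 libraries of highest carry-over (0.152).

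Promoters of some of these genes hold the CArG box, the sequence that SRF binds, and are shown so that it can be read beside the values of the genes that fell. In RefSeq's promoter windows on GRCm38.p6, from 250 bases before to 50 after a gene's start, a CArG box was present in 183 of the 11076 tested genes with a window (1.65%) and in 9 of the 34 listed MRTF and SRF targets with one (26.5%). Of those 9 genes 6 were lower and 1 was higher, beside 27 and 5 of the whole list of 40. Over all genes the box was in 1.72% of the windows of lower genes, 1.42% of those of higher genes and 1.74% of those of genes that did not pass. The motif was searched on both strands. A match describes letters and does not show that SRF was bound. Stretches before the starts of Srf (chr17:46556195-46556284, minus strand), Vcl (chr14:20929148-20929220, plus strand), Myl9 (chr2:156775263-156775352, plus strand), Cnn2 (chr10:79988504-79988593, plus strand) and Actg1 (chr11:120348536-120348625, minus strand) are given 5′ to 3′ in the gene's direction, with each CArG box in capitals.
Srf: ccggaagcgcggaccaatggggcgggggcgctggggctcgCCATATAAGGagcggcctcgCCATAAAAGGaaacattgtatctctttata
Vcl: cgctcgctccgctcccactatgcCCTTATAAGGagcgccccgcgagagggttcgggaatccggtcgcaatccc
Myl9: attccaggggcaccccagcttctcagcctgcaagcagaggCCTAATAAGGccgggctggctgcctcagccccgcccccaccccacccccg
Cnn2: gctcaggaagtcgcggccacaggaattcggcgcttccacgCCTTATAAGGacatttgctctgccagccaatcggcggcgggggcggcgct
Actg1: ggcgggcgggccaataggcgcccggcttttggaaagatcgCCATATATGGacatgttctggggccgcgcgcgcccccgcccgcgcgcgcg

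Contractile genes of smooth muscle were mostly lower too, and some of these are also genes with large estimated shares of carried-over wild-type transcript. Of 19 tested members 12 were lower and 3 higher (median -0.50), and without Y238A replicate 1 the counts were 12 and 2. Myl9, a regulatory light chain of myosin and the member of the cytoskeletal list that fell most, had 43.0, 24.8 and 20.1 CPM in Y238A libraries and 206.0, 204.6 and 205.9 CPM in empty vector libraries. All Y238A values lay below, the highest of them in replicate 1, where the estimated carry-over was also highest. Its log2 fold change was -2.81 ± 0.26 (adjusted p = 1.13e-06), and carried-over transcript was estimated at 44.8% of the Y238A level. Acta2, smooth muscle actin, had 1976, 1490 and 1339 CPM with Y238A and 2862, 2910 and 2926 CPM with empty vector, and fell by 0.86 ± 0.12 on the log2 scale (adjusted p = 3.64e-05). Actg2, another smooth muscle actin (log2 -2.06, adjusted p = 0.00424), and Tagln (-1.80, adjusted p = 0.000466) also fell. Cnn1, calponin, passed narrowly (-1.44, adjusted p = 0.0301). It lost its call without Y238A replicate 2 (adjusted p = 0.0904) or 3 (0.0966) and without empty vector replicate 1 (0.0634), 2 (0.0639) or 3 (0.0526). The 3 higher members were Mylk, Myh11 and Synm. Myh11 had 7.45, 2.79 and 1.24 CPM with Y238A and 1.11, 0.835 and 1.14 CPM with empty vector, in the order of the carry-over, which was estimated at 113.1% of its Y238A level. Without Y238A replicate 1 its log2 fold change was 0.99 in place of 1.91 and it no longer passed (adjusted p = 0.0994), nor did it without empty vector replicate 2 (0.0563) or in the 6 libraries alone (0.101). For Mylk the estimate was 72.2%, and its log2 fold change was 1.68, 0.89 without Y238A replicate 1 (adjusted p = 0.0036), and not called in the 6 libraries alone (0.0773). For Synm the estimate was 22.4%. The part of carry-over in these higher values was not tested beyond these shares.

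Among 12 tested sarcomere genes 4 were higher (33.3%, beside 25.6% of all genes) and 0 lower. Actc1, cardiac actin, ranked second, after Slc34a2, among genes of at least 1 CPM that passed and whose groups were separate, the construct aside, with 11.5, 3.11 and 0.824 CPM in Y238A libraries and 0.0226, 0.0 and 0.0485 CPM in empty vector libraries. The 3 Y238A libraries fell in the order of their carry-over, which was estimated at 113.0% of the Y238A level. The log2 fold change was 7.77 ± 1.60 (adjusted p = 0.0012), and it was 6.39 without Y238A replicate 1, 7.15 without empty vector replicate 2 and 8.71 without empty vector replicate 3. Nebl, which encodes a nebulin-like protein of actin filaments, had 10.6, 7.71 and 7.22 CPM in Y238A libraries and 2.20, 1.76 and 1.37 CPM in empty vector libraries (log2 2.26, adjusted p = 3.94e-07). Carry-over was estimated at 0.142% of its Y238A level.

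**Figure D2:**
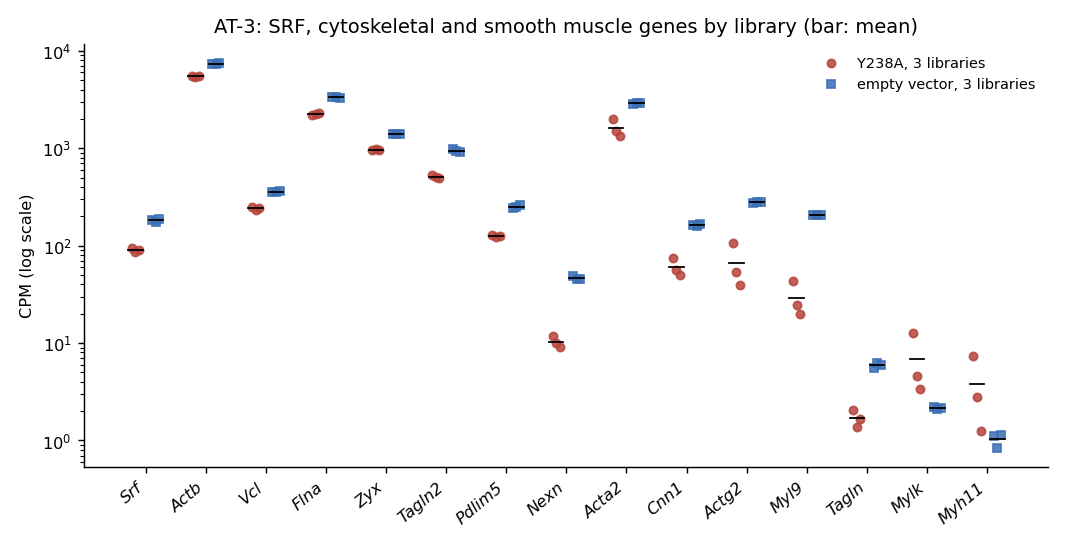
CPM on a log axis for 15 genes, with the 3 Y238A libraries as circles left of the 3 empty vector libraries as squares and the group mean as a bar. From Srf to Tagln every Y238A library lies below every empty vector library, and the Y238A libraries of Actg2, Myl9, Mylk and Myh11 are spread out with replicate 1 highest.

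Immediate early genes, which SRF controls together with the ternary complex factors and which answer growth signals within minutes, moved both ways. Of 30 tested, 11 were higher and 10 lower, with a median of 0.02. Egr1 fell to 24.4, 18.6 and 19.7 CPM in Y238A libraries, against 52.3, 47.9 and 53.1 CPM in empty vector libraries (log2 -1.29, adjusted p = 0.000248). Jun fell by 0.67 (adjusted p = 7.84e-08), while Fos had 4.84, 4.54 and 4.22 CPM with Y238A and 3.10, 4.19 and 4.87 CPM with empty vector and did not pass (adjusted p = 0.507). Higher members included the orphan nuclear receptors Nr4a2 (log2 1.85) and Nr4a3 (2.44), the growth inhibitor Btg2 (2.01) and Klf10 (1.74), each with an adjusted p at or below 3.39e-09.

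Interferon-stimulated genes had the highest median of the 32 gene lists read here. Interferons bind surface receptors whose kinases activate STAT proteins, which with IRF9 bind promoters of antiviral genes. Of 55 tested genes of this list 50 were higher and 2 lower, beside 25.6% higher among all genes, and 38 were higher by 2-fold or more. The median log2 fold change was 2.18. Without Y238A replicate 1, 51 were higher and 2 lower. Their summed level was 1231, 1368 and 1399 CPM in Y238A libraries and 756.6, 769.6 and 783.0 CPM in empty vector libraries, so the groups did not overlap, and the replicate with the most carry-over was the lowest of the Y238A libraries.

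Among the regulators, Stat2 had 81.5, 98.8 and 96.4 CPM with Y238A and 26.9, 29.8 and 29.4 CPM with empty vector (log2 1.68, adjusted p = 2.85e-08). Every Y238A library lay far above every empty vector library. The transcription factor genes Irf1 (log2 1.84 ± 0.08, adjusted p = 3.92e-13), Irf7 (2.26) and Irf9 (0.96) also rose, and Irf8 did not pass (0.49, adjusted p = 0.143).

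Effectors rose too. Rsad2, encoding the antiviral enzyme viperin (chr12:26442746-26456452), had 3.40, 3.7 and 4.07 CPM in Y238A libraries and 0.0453, 0.0412 and 0.0727 CPM in empty vector libraries, a log2 fold change of 6.12 ± 0.29 (adjusted p = 8.79e-12). Ifit1, which binds foreign RNA ends, had 14.4, 15.7 and 16.7 CPM with Y238A and 1.68, 1.61 and 1.89 CPM with empty vector (log2 3.18 ± 0.15, adjusted p = 2.02e-12). Iigp1, an immunity-related GTPase, had 11, 12.4 and 15.5 CPM with Y238A and 0.283, 0.351 and 0.824 CPM with empty vector (log2 4.75, adjusted p = 3.68e-08). In these 3 genes the Y238A libraries were several times above the empty vector libraries, and carried-over transcript was estimated at 0.0455% of the Y238A level or less. The ubiquitin-like modifier Isg15 (2.51), the guanylate-binding protein genes Gbp2 (1.96) and Gbp3 (2.73), the tetherin gene Bst2 (2.20), the 2′-5′ oligoadenylate synthetase-like gene Oasl2 (3.14) and the galectin-binding Lgals3bp (2.19) rose as well. Ifit3 and Ifit3b (3.67 and 4.26), Tgtp1 and Tgtp2 (2.32 and 3.59) and the Oas1 genes are near-identical copies, and how the counting split their reads is not known. The exceptions were Ifit2, which fell to 22, 23.3 and 24.5 CPM in Y238A libraries against 27.1, 30.4 and 29.9 CPM in empty vector libraries (log2 -0.32, adjusted p = 0.00854), and Samhd1 (-0.23, adjusted p = 0.0101). Eif2ak2, Ddx58 and Irf8 were the 3 that did not pass, and Ddx58 passed without Y238A replicate 1 (adjusted p = 0.0288).

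Genes of interferons themselves were looked up after these results were seen. Of 21 in the table, including Ifnb1, the Ifna genes and Ifng, 17 had 0 counts in all 6 libraries, which allows at most 0.0366 CPM in a library, or 0.0732 CPM if both mates of a pair were counted, and the highest value of any was 0.34 CPM (Ifnz, which did not pass). Receptor genes were higher in 3 of 6 tested and lower in 1 (median 0.17), beside 25.6% higher and 26.9% lower among all genes. Ifnar1 had 92.4, 94.0 and 93.2 CPM in Y238A libraries and 85.6, 86.4 and 91.9 CPM in empty vector libraries (log2 0.08, adjusted p = 0.182, and 0.0411 in the 6 libraries alone). Ifnar2 was higher by 0.28 (adjusted p = 0.00473). Among sensors and their adaptors, 6 of 11 tested were higher and 1 was lower, to be read beside the same shares of all genes. The adaptor of RNA sensing Mavs had 64.8, 64.5 and 65.7 CPM with Y238A and 28.1, 30.4 and 32.7 CPM with empty vector (log2 1.10, adjusted p = 1.07e-11). Tmem173, encoding STING of DNA sensing, rose by 0.89 (adjusted p = 2.13e-05), Irf3 by 0.35 (adjusted p = 2.53e-05), and the DNA sensor gene Cgas fell by 0.43 (adjusted p = 0.000923).

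The DNA element that these STAT and IRF complexes bind has the core letters GAAANNGAAA, and a few promoters of the list are shown for the genes just described. On either strand of the same windows these letters were present in 415 of 11076 tested genes (3.75%), in 5.11% of the genes that were higher and in 2.86% of those that were lower. In the interferon list 24 of 42 genes with a window held them (57.1%). Of the 24 genes 22 were higher, beside 50 of the whole list of 55, and Ddx58 and Eif2ak2 did not pass. Stretches of Rsad2 (chr12:26456523-26456612, minus strand), Ifit1 (chr19:34640745-34640834, plus strand), Isg15 (chr4:156200847-156200936, minus strand), Gbp2 (chr3:142620564-142620653, plus strand) and Bst2 (chr8:71537553-71537642, minus strand) run 5′ to 3′ in the gene's direction, and capitals mark the element on either strand, with overlapping copies run together in Isg15 and Bst2.
Rsad2: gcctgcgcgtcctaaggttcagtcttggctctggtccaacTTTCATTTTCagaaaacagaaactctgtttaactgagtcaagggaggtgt
Ifit1: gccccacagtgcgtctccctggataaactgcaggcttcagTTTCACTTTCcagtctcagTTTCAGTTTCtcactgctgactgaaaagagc
Isg15: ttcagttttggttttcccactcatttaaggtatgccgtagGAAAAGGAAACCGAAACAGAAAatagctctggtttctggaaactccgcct
Gbp2: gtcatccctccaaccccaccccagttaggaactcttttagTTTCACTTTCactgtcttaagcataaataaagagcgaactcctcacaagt
Bst2: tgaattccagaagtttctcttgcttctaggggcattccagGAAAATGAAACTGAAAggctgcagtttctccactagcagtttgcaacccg

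MHC class I molecules carry peptides, cut by the immunoproteasome and loaded in the endoplasmic reticulum, to the cell surface. The list read here holds this pathway together with ligands of natural killer cells and the checkpoint ligand gene Cd274. Of its 31 tested genes 21 were higher and 3 lower, with a median of 0.94. H2-K1, a classical heavy chain, had 142.3, 147.5 and 142.3 CPM in Y238A libraries and 68.2, 67.0 and 66.5 CPM in empty vector libraries (log2 1.10 ± 0.04, adjusted p = 1.05e-13). B2m, the shared light chain, had 675.4, 690.1 and 689.2 CPM with Y238A and 475.6, 464.5 and 464.8 CPM with empty vector (log2 0.55 ± 0.03, adjusted p = 4.7e-11). Neither gene's groups came close to each other. The loading factor Tapbp (1.73), the trimming peptidase Erap1 (1.63), the immunoproteasome subunits Psmb8 (2.05), Psmb9 (2.66) and Psmb10 (1.23), the transporter subunits Tap1 (1.03) and Tap2 (0.37, adjusted p = 0.0545 without Y238A replicate 2) and the non-classical heavy chain H2-T22 (2.03) were higher. Ulbp1, a ligand of an activating receptor of natural killer cells, fell to 14.3, 14.2 and 13.1 CPM with Y238A, against 32.1, 31.1 and 28.1 CPM with empty vector (log2 -1.13, adjusted p = 1.02e-10). The checkpoint ligand gene Cd274 was low, at 1.77, 1.82 and 1.72 CPM with Y238A and 0.792, 0.629 and 0.812 CPM with empty vector (log2 1.25, adjusted p = 0.000148).

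**Figure D3:**
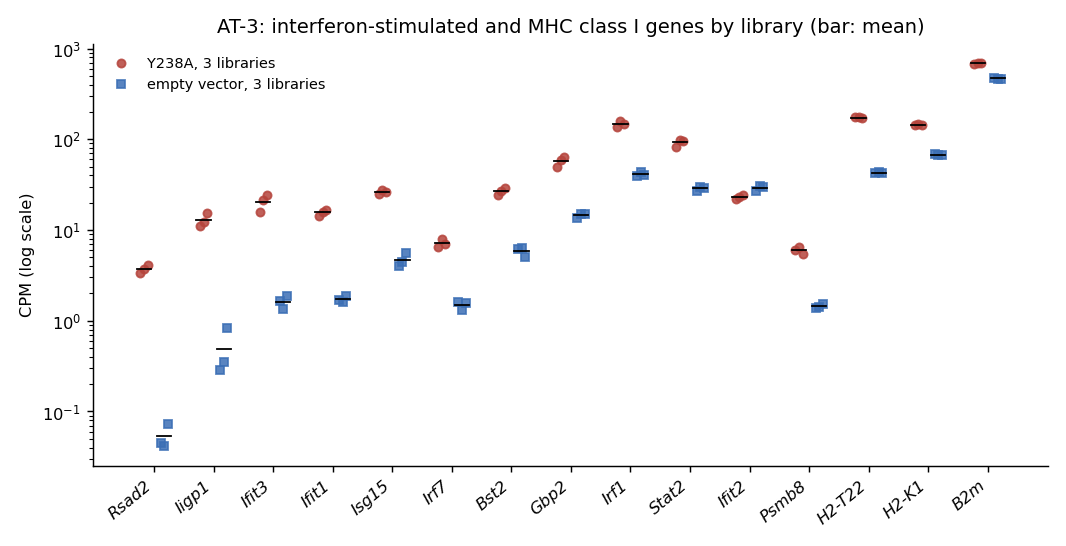
CPM on a log axis for 11 interferon-stimulated and 4 MHC class I genes, with the 3 Y238A libraries as circles left of the 3 empty vector libraries as squares and the group mean as a bar. The groups do not overlap for any of the 15 genes, and Ifit2 is the gene that is lower with Y238A.

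Genes of NF-kB signalling and inflammatory cytokines did not move as a group. Of 32 tested, 12 were higher and 10 lower, with a median of 0.03. Tnfaip2 had 374.7, 403.6 and 393.0 CPM in Y238A libraries and 113.9, 113.9 and 109.7 CPM in empty vector libraries (log2 1.79 ± 0.06, adjusted p = 2.8e-14), far apart between groups. The chemokine gene Cxcl10, also a target of interferon, rose by 1.36 (adjusted p = 1.31e-06). The inhibitors of the pathway Tnfaip3 (-1.04) and Nfkbia (-0.42) fell, with adjusted p of 2.62e-07 and 2.43e-05.

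Genes of cytosolic ribosomal proteins moved together. All 81 tested were lower, and the log2 fold changes lay between -0.85 (Rps12) and -0.16 (Rps27l), with a median of -0.49. Their summed level was 37992, 38604 and 38706 CPM in Y238A libraries and 52894, 53221 and 53203 CPM in empty vector libraries. These sums are close within each group and far apart between groups. Rpl4 had 1074, 1093 and 1105 CPM with Y238A and 1746, 1729.5 and 1719 CPM with empty vector (log2 -0.67 ± 0.05, adjusted p = 1.12e-09). Under library totals in place of the scaling factors all 81 stayed lower with a median of -0.47, and without Y238A replicate 1 the count was 80, Rps27l being lost (adjusted p = 0.101). Rps27l was also lost without empty vector replicate 2 (adjusted p = 0.0584). The direction was the opposite for the mitochondrially encoded genes, where 11 of 13 were higher and 0 lower, by a median of 0.59. mt-Co2, a subunit of cytochrome oxidase, had 64.7, 73.5 and 65.3 CPM with Y238A and 43.5, 42.5 and 47.1 CPM with empty vector (log2 0.61, adjusted p = 2.21e-06).

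Genes of the cell cycle were lower by small amounts. Of 57 S-phase genes 39 were lower and 4 higher (median -0.31), and of 55 G2/M genes 36 were lower and 2 higher (median -0.31). Cdca8, a subunit of the chromosomal passenger complex, had 66.3, 62.6 and 62.1 CPM in Y238A libraries and 116.1, 115.6 and 116.7 CPM in empty vector libraries (log2 -0.87 ± 0.04, adjusted p = 4.98e-12). Ung, which removes uracil from DNA, had 9.26, 7.77 and 7.11 CPM with Y238A and 25.6, 23.4 and 21.5 CPM with empty vector (log2 -1.55, adjusted p = 3.23e-09). Cdk1, the mitotic kinase, fell by only 0.16 (adjusted p = 0.00939, and 0.052 without Y238A replicate 3). Cdkn1a, a p53 target that encodes the cell cycle inhibitor p21, rose to 39.1, 36 and 34.3 CPM with Y238A, against 9.67, 7.22 and 8.65 CPM with empty vector (log2 2.10 ± 0.14, adjusted p = 3.23e-09). Of 31 p53 targets 10 were higher and 6 lower, and Mdm2 was among the lower (-0.26, adjusted p = 0.000542).

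**Figure D4:**
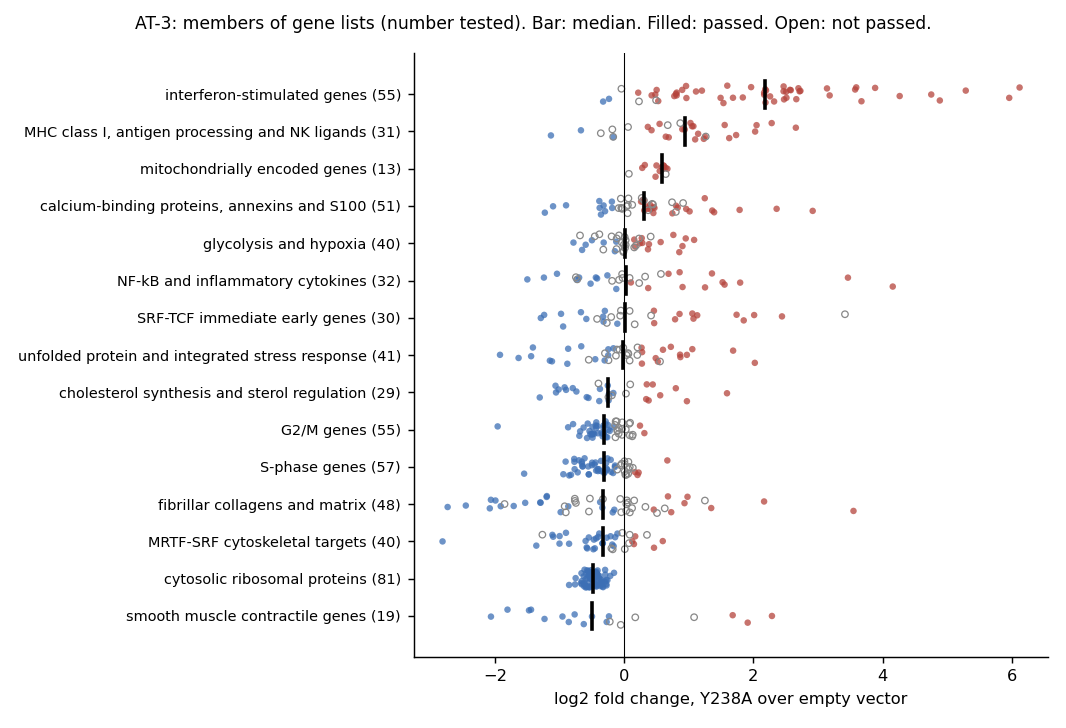
Log2 fold changes of Y238A over empty vector for the members of 15 gene lists, with the number tested in brackets, filled points for genes that passed (red higher, blue lower), open points for those that did not, and a bar at the median. Interferon-stimulated genes lie mostly right of 0 with a median of 2.18 and all 81 ribosomal protein genes lie left of it.

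Genes of the extracellular matrix moved both ways within families. Of 48 collagens and other matrix genes 18 were lower and 8 higher (median -0.33). Col5a3, a chain of type V collagen (chr9:20770050-20815067), had 442.2, 433.4 and 379.4 CPM in Y238A libraries and 35.1, 36.7 and 35.5 CPM in empty vector libraries (log2 3.55 ± 0.06, adjusted p = 1.18e-18). Col16a1 rose by 2.17 ± 0.06 (adjusted p = 6.34e-16). Col6a2 of type VI collagen went the other way, with 42.2, 47.0 and 46.6 CPM with Y238A and 175.4, 193.2 and 197.9 CPM with empty vector (log2 -2.06 ± 0.10, adjusted p = 9.6e-11), and Col6a1 fell by 1.20. For all of these genes the libraries were far apart. Sparc (0.93) and Fbln2 (0.98), abundant matrix genes, rose. Thbs1, encoding thrombospondin-1, is named after its values were seen. It had 1157, 1105 and 1086 CPM with Y238A and 4077, 4110 and 3878 CPM with empty vector, a log2 fold change of -1.85 that did not pass in the fit of all 18 libraries (adjusted p = 0.22). In a fit of the 6 libraries alone its adjusted p was 2.43e-16, and without the 4 libraries of highest carry-over it was 1.19e-09.

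Few abundant genes that changed 2-fold or more were in this position. Of the genes that averaged 10 CPM or more, changed 2-fold or more and had separate groups, 3 missed the threshold in the fit of 18 libraries, and all 3 passed in the 6 libraries alone. Besides Thbs1 these were Fhl1, a LIM protein of muscle (-1.26, adjusted p = 0.132 in 18 libraries and 1.32e-07 in 6), and Il1rl1, the receptor of interleukin-33. Il1rl1 had 1259, 1361 and 1384 CPM with Y238A and 555.1, 580.7 and 567.0 CPM with empty vector (log2 1.23, adjusted p = 0.0647 in 18 libraries and 5.16e-13 in 6). At any level, 212 genes met these conditions, of which 119 passed in the 6 libraries alone and 20 without the 4 libraries of highest carry-over. Below 2-fold, abundant genes with separate groups missed the threshold as well. Among them in the fit of 18 libraries were Fn1 (0.51, adjusted p = 0.843) and Lox (-0.90, adjusted p = 0.248). For the 48 matrix genes 40 had separate groups, beside 66.2% of all genes, and 22 did not pass.

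Of 27 matrix proteases and their inhibitors 8 were higher and 8 lower. Plat, tissue plasminogen activator, rose to 71.7, 66.8 and 69.7 CPM in Y238A libraries, against 5.16, 6.44 and 7.63 CPM in empty vector libraries (log2 3.44 ± 0.13, adjusted p = 2.57e-13). Mmp9, a gelatinase, fell by 1.34 and Adamts1 by 1.40, with adjusted p of 1.92e-08 and 4.82e-08. Of 36 integrin and focal adhesion genes 12 were higher and 9 lower. The integrin subunit genes Itgb5 (0.65) and Itga3 (0.34) and Tns1, encoding tensin 1 of adhesions (1.0), rose, and Lims2 (-1.78), whose carry-over was estimated at 37.5% of the Y238A level, fell. Laminin chains were higher in 2 and lower in 3 of 10 tested. Of 22 targets of YAP and TEAD, a coactivator that responds to the cytoskeleton and its DNA-binding partner, 11 were lower and 4 higher (median -0.32), with Asap1 at -0.84 and Ccn1 at -1.11 among the lower.

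Signalling genes of the Wnt and Hedgehog pathways held some of the largest changes. Of 35 tested, 12 were lower and 4 higher. Sfrp1, a secreted antagonist of Wnt proteins (chr8:23411502-23449632), rose to 133.1, 129.8 and 135.4 CPM in Y238A libraries, against 1.74, 1.55 and 2.50 CPM in empty vector libraries (log2 6.11 ± 0.36, adjusted p = 1.17e-08). Wnt4 rose by 2.87 (adjusted p = 2.18e-06). Gli1, the Hedgehog effector and one of its own pathway's targets, fell to 0.632, 0.558 and 0.536 CPM with Y238A, against 6.04, 5.39 and 5.13 CPM with empty vector (log2 -3.26 ± 0.25, adjusted p = 3.49e-08). The groups of these genes were apart by several times their spread. Another Hedgehog target, Hhip, fell by 1.72 (adjusted p = 0.000673, but 0.431 with DESeq2), whereas the receptor gene Ptch1 did not pass (0.22, adjusted p = 0.0969, and 0.0275 in the 6 libraries alone). Lower on the Wnt side were Dkk2 (-3.56), Nkd2 (-3.37), Wnt5b (-2.24), Wnt7b (-1.53) and Lef1 (-1.42), and Axin2, a general Wnt target, did not pass (-0.05, adjusted p = 0.771). Of 40 genes of TGF-beta, BMP and activin signalling 10 were higher and 10 lower, 25% each way and close to the 25.6% and 26.9% of all genes, with Tgfbr1 at 0.88 and Tgfb2 at -0.94. Among 14 CCN and IGF-related genes 3 were higher and 6 lower, and Igf2, a growth factor gene, had 3.07, 1.12 and 1.30 CPM with Y238A and 10.8, 11.4 and 11.3 CPM with empty vector (log2 -2.60, and -3.21 without Y238A replicate 1). The carry-over estimate for Igf2 was 45.2% of the Y238A level.

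The series title concerns cytoplasmic calcium and potassium, and the lists of genes that move or bind these ions are given for that reason. Of 57 calcium pumps, channels and store genes 16 were higher and 16 lower, 28.1% each way and near the 25.6% and 26.9% of all genes. Cacna1g, a T-type calcium channel, had 18, 15.3 and 14.7 CPM in Y238A libraries and 0.430, 0.577 and 0.315 CPM in empty vector libraries (log2 5.17 ± 0.51, adjusted p = 4.19e-07). Cacna1c, an L-type channel, had 9.39, 8.2 and 7.79 CPM with Y238A and 22.3, 22.6 and 20.7 CPM with empty vector (log2 -1.37 ± 0.11, adjusted p = 8.03e-09). Piezo1, a stretch-activated channel, rose to 755.0, 730.1 and 721.0 CPM with Y238A, against 415.4, 399.2 and 379.3 CPM with empty vector (log2 0.89, adjusted p = 2.36e-08). These are channels of different gating whose libraries did not overlap. Calcium-binding proteins leaned upwards, with 23 of 51 higher and 10 lower (median 0.31). Camkk1, a kinase activated by calmodulin, rose by 2.92 ± 0.12 (adjusted p = 4.07e-13), Rcn1 of the endoplasmic reticulum by 1.01, S100a4 by 1.25 and Anxa1 by 0.83, while Anxa6 fell by 1.10.

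Of 31 potassium channel genes tested, out of 83 in the table, 5 were higher and 3 lower. These 25.8% called stand beside 52.4% of all genes, a difference that was not tested. Their summed level was low, at 36.1, 32.4 and 33.9 CPM in Y238A libraries and 40, 35.3 and 38.8 CPM in empty vector libraries. Kcnn4, a calcium-activated channel and the most abundant member that passed, had 10.9, 11.2 and 11.9 CPM with Y238A and 15.5, 14.9 and 16.4 CPM with empty vector (log2 -0.46, adjusted p = 5.92e-06). Higher were Kcnip3, an accessory subunit of potassium channels (log2 2.55), and Kcne1, another (4.14), both under 4 CPM. Kcnk1 had 0 counts in the Y238A libraries and 48 in the empty vector libraries, at least 18-fold lower with the floor set at 3 counts over the group, or 9.0-fold with a floor of 6 if both mates were counted. Atp1b3, a subunit gene of the sodium-potassium pump, rose by 0.67 ± 0.04 (adjusted p = 2.9e-11), in a list of 35 pump, cotransporter and volume channel genes with 11 higher and 8 lower.

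Of 41 genes of the unfolded protein and integrated stress responses 13 were higher (31.7%) and 14 lower (34.1%), near the 25.6% and 26.9% of all genes. Chaperones and folding enzymes of the endoplasmic reticulum were among the higher, with Pdia4 at 839.9, 825.1 and 828.1 CPM in Y238A libraries and 254.2, 255.9 and 264.6 CPM in empty vector libraries (log2 1.69 ± 0.05, adjusted p = 1.46e-15), Sdf2l1 at a log2 fold change of 2.02 and Hsp90b1 at 0.97. The main chaperone of that compartment, Hspa5, did not pass (0.07, adjusted p = 0.228, and 0.0483 without empty vector replicate 3). Some genes driven by ATF4 were among the lower. Asns, asparagine synthetase, had 47.6, 45.9 and 46.2 CPM with Y238A and 123.6, 124.8 and 130.3 CPM with empty vector (log2 -1.44 ± 0.07, adjusted p = 1.35e-11). Slc7a5 was at -1.12, Mthfd2 at -1.63 and Trib3 at -1.92. Of 29 genes of cholesterol synthesis and its control 16 were lower and 8 higher (median -0.24), Lss (-1.31) falling and Ebp (1.59) rising. Replicate 1 of each group was lowest for Lss, at 44.2, 55.4 and 61.6 CPM with Y238A and 104.6, 138.1 and 155.8 CPM with empty vector. Of 40 genes of glycolysis and hypoxia 13 were higher and 7 lower, with Aldoa, aldolase, at 0.90 and the glucose transporter gene Slc2a1 at -0.78.

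Of 25 epithelial genes 9 were lower and 4 higher (median -0.46). Krt19, a keratin gene, was higher, with 75.4, 66.0 and 63.0 CPM in Y238A libraries and 4.07, 3.44 and 3.88 CPM in empty vector libraries (log2 4.17 ± 0.14, adjusted p = 4.36e-14), while Krt7 fell to 0.175, 0.235 and 0.144 CPM with Y238A, against 1.70, 2.10 and 2.37 CPM with empty vector (log2 -3.46, adjusted p = 1.78e-08). Of 31 mesenchymal genes 6 were higher and 10 lower. Cd68, a lysosomal glycoprotein gene used as a macrophage marker, rose to 73.7, 69.2 and 68.7 CPM with Y238A, against 3.27, 3.85 and 2.94 CPM with empty vector (log2 4.39 ± 0.17, adjusted p = 6.15e-13), while Ptprc, Adgre1 and Cd3e were at or near 0 in all 6 libraries. The summed level of the 8 leukocyte and macrophage markers was 70.3 to 75.5 CPM in Y238A libraries and 5.26 to 6.0 CPM in empty vector libraries, nearly all of it Cd68, and of the 3 tested 1 was higher. Of 4 fibroblast markers tested 1 was lower (Pdgfrb), and of 4 endothelial and adipocyte markers 1 was higher (Fabp4, under 1 CPM throughout). The summed level of the fibroblast markers was 368.6 to 412.4 CPM in Y238A libraries and 488.0 to 530.7 CPM in empty vector libraries. Nearly all of it was Pdgfrb (group means of 281.0 and 402.5 CPM) and Pdgfra (115.3 and 108.6 CPM), and Thy1, Dpt, Pi16, Dpep1 and Fap were under 1 CPM. The part of other cells in any result was not tested beyond these levels.

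Outside these lists, the genes with the highest fold changes were mostly of low level in empty vector cells. Slc34a2, a sodium-phosphate cotransporter, had 2.43, 2.43 and 1.55 CPM in Y238A libraries, or 648 counts, and 0 counts in empty vector libraries, and was at least 191.5-fold higher against a floor of 3 counts, or 95.8-fold against one of 6 if both mates were counted. Hoxb13, a homeobox gene, had 3.36, 2.74 and 3.44 CPM with Y238A and 0.0, 0.0412 and 0.0 CPM with empty vector (log2 7.62 ± 0.39, adjusted p = 7.17e-12, and 11.24 without empty vector replicate 2, which held its only counts among controls). Gchfr, a regulator of the enzyme that starts tetrahydrobiopterin synthesis, had 56.7, 55.0 and 56.2 CPM with Y238A and 1.72, 1.84 and 1.26 CPM with empty vector (log2 5.12 ± 0.15, adjusted p = 2.78e-15). In each of the 3 genes the groups were far apart. Rnf165 (6.01), Myh14, a non-muscle myosin heavy chain (5.72), the growth factor carrier gene Fgfbp1 (5.32, and 6.13 without empty vector replicate 2), the acute phase gene Orm1 (5.24), Arhgap36 (5.11), Rgs4, a brake on G-protein signalling (5.06), Glt8d2 (4.96) and Apol9a (4.77) completed the highest 15 together with Actc1, Rsad2, Sfrp1 and Cacna1g, and Apol9a may share reads with its copy Apol9b.

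The lowest included Cdh15, muscle cadherin (chr8:122847966-122867397), with 0.0584, 0.0978 and 0.185 CPM in Y238A libraries and 2.94, 2.77 and 2.35 CPM in empty vector libraries (log2 -4.56 ± 0.41, adjusted p = 2.49e-08). Lipg, a lipase, had 1.75, 1.41 and 1.89 CPM with Y238A and 10.3, 14.7 and 17.3 CPM with empty vector (log2 -3.07, adjusted p = 1.7e-09), and the empty vector libraries of this gene varied more than the Y238A libraries in CPM. Spry1, a brake on growth factor signalling, fell by 2.57 ± 0.16 (adjusted p = 1.79e-10), Grb10, an adaptor of the insulin receptor, by 2.54, and the actin-binding Cap2 by 3.19. Scn3a (-3.10), Ak5 (-2.74), Fbn2 (-2.73), Slc1a6 (-2.67) and Klhl23 (-2.65) completed the lowest 15 together with Dkk2, Krt7, Gli1, Myl9 and Igf2.

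The same construct was also compared with its own empty vector in E0771. The difference between the lines, tested as an interaction, passed for 4772 of the 14775 genes (32.3%), with the AT-3 effect above the E0771 effect for 2524 and below it for 2248. Without the 4 libraries of highest carry-over, most of them of E0771, the difference passed for 3800 genes. Some transcripts abundant in AT-3 varied widely among E0771 empty vector libraries, such as Fn1 (38.9 ± 67.3 CPM) and Cxcl12 (1.74 ± 3.01 CPM, mean ± SD). The part of transcripts from AT-3 or from wild-type MRTFA cells in E0771 values was not tested further. The construct itself was less abundant in E0771, at 2063 ± 190 CPM in AT-3 and 324 ± 39 CPM in E0771 (SD, n = 3 each), so line and construct level cannot be told apart. For ribosomal protein genes the median log2 fold change was -0.49 in AT-3 and 0.03 in E0771, and the AT-3 effect was lower for 79 of 81. Among the 40 MRTF and SRF targets 18 were lower in AT-3 than in E0771 and 4 were higher, with medians of -0.33 and -0.10. Srf had a log2 fold change of -1.0 in AT-3 and -0.26 in E0771, a difference of -0.74 ± 0.10 (adjusted p = 2.1e-05). Jup, plakoglobin, differed in direction, with -1.10 in AT-3 and 0.82 in E0771 (adjusted p of the difference 1.18e-08).

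Interferon-stimulated genes had medians of 2.18 in AT-3 and 1.60 in E0771. The difference passed for 26 of 55, in 13 with the larger effect in AT-3 and in 13 with the smaller. Rsad2 had log2 fold changes of 6.12 in AT-3 and 2.32 in E0771 (difference 3.80 ± 0.38, adjusted p = 6.57e-07), and Irf1 had 1.84 in AT-3 and 0.52 in E0771 (adjusted p = 2.04e-08). Irgm1 went the other way, with 0.22 in AT-3 and 1.76 in E0771 (difference -1.54 ± 0.09, adjusted p = 7.24e-10). In the list of MHC class I presentation and natural killer cell ligands the AT-3 effect was above that of E0771 in 18 of 31 and below it in 1. H2-K1 had 1.10 in AT-3 and 0.05 in E0771 (adjusted p = 1.84e-10). The 8 genes with the smallest p for a larger value in AT-3 were Col5a3 (3.55 in AT-3 and 0.86 in E0771), Avpi1 (2.70 and 0.32), Shc1, an adaptor of growth factor receptors (1.65 and 0.17), Ly6a (3.97 and 1.79), the xanthine dehydrogenase gene Xdh (2.12 and 0.42), the creatine synthesis gene Gamt (3.48 and 0.66), Dnajb11 (2.28 and 0.41) and Cpt1a, which admits fatty acids to mitochondria (1.89 and 0.01), with the AT-3 value first. The 8 with the smallest p in the other direction were Pdlim5 (-1.0 and -0.03), Slc2a1 (-0.78 and 0.02), Asns (-1.44 and 0.17), Nexn, encoding nexilin of actin filaments (-2.17 and -0.17), Irgm1, Gcat (-1.35 and -0.22), Glipr2 (-1.59 and -0.11) and Ddah2 (-1.92 and 0.91).

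**Figure D5:**
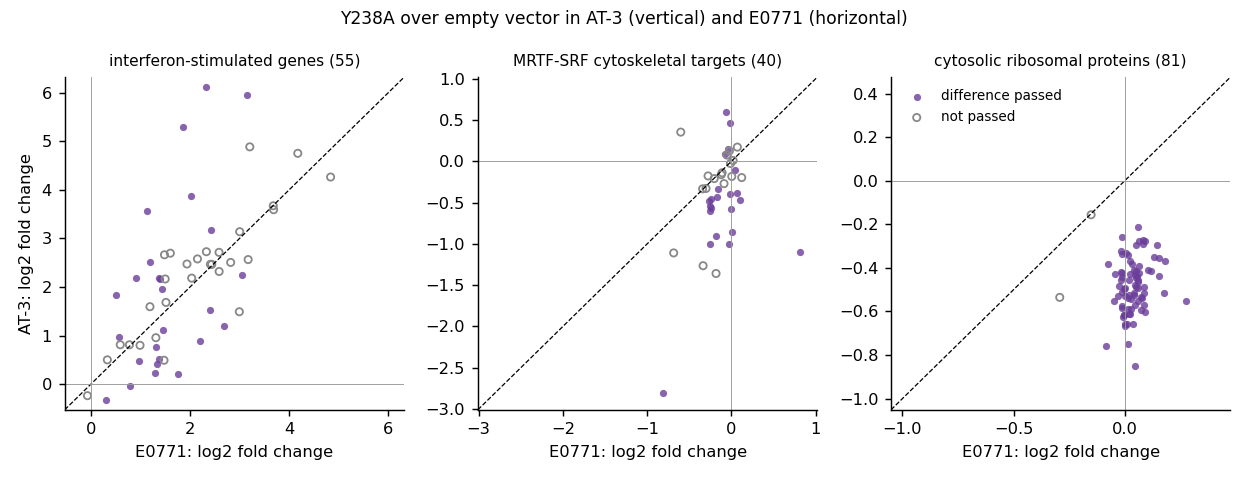
Log2 fold changes of Y238A over empty vector in AT-3 (vertical) against E0771 (horizontal) for 3 lists, with the line of equality dashed, filled points for genes whose difference between lines passed and open points for the rest. Interferon-stimulated genes scatter on both sides of the line, while ribosomal protein genes sit near 0 in E0771 and between -0.85 and -0.16 in AT-3.

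Wild-type MRTFA in AT-3 was compared with the same 3 empty vector libraries, so its values share their error and are given only side by side. The medians of Y238A and of wild-type MRTFA were -0.33 and 0.91 for MRTF and SRF targets, -0.50 and 3.14 for smooth muscle genes, 2.18 and -1.22 for interferon-stimulated genes, and -0.49 and -0.60 for ribosomal protein genes. Srf had log2 fold changes of -1.0 with Y238A and 1.71 with wild type, Myl9 -2.81 and 3.56, Acta2 -0.86 and 3.88, Ifit1 3.18 and -1.48, and Ly6a 3.97 and -3.53. Among the highest and lowest genes, some had like values with both constructs. Sfrp1 was at 6.11 with Y238A and 5.05 with wild type, Hoxb13 at 7.62 and 7.10, Gli1 at -3.26 and -3.42, and Cdh15 at -4.56 and -4.17. Others did not, such as Myl9 above, Igf2, at -2.60 with Y238A and 3.77 with wild type, and Krt7, at -3.46 and 0.19. How many did either was not counted.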

How the data were processed

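Per the submitters' processing notes, STAR, featureCounts and the GRCm38 build were used to make the deposited counts per gene, and versions, strand setting and annotation are not given in the sources used here. The deposited values are raw counts, and between 62.16% and 63.95% of the counts above 0 in each library were even numbers, so read pairs may have been counted by mate. Counts of genes whose sequences are near-identical or that overlap are uncertain. The entry MRTFA has no gene ID in the table and was taken as the construct. Gene symbols and positions were matched by ID, for 32158 of 32286 entries, to GENCODE M21 (GRCm38).

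Genes passing edgeR's filterByExpr on the 6 libraries (minimum count 10, minimum total 15) were fitted in edgeR 4.0.16 (R 4.3.3) with TMM scaling and the robust quasi-likelihood test over all 18 libraries and 6 group means, which leaves 12 residual degrees of freedom. Adjusted p-values are Benjamini-Hochberg over 14775 genes with a threshold of 0.05, and SE is that of the log2 fold change. The difference between lines was an interaction in the same fit. The script was first run on simulated data and tested for recovery of the changes put in. Floors are 3 counts over a group and cover counting error only.

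The genes to name by rule were the construct, Mrtfa, Mrtfb and Srf, the 15 highest and 15 lowest log2 fold changes (called, separate groups, mean of at least 1 CPM), up to 5 called members of each list by smallest p, defining list members, and the 8 smallest p in each direction between lines. Other list members and families were chosen after their values were seen. The members and lists were chosen with earlier results of these data known. Alternatives were DESeq2 1.42.0, other scalings and filters, fewer libraries, a replicate block and leaving out each Y238A and empty vector library. Wild-type MRTFA libraries were not left out 1 at a time. Leaving out the 4 libraries of highest carry-over was chosen after seeing the data, and no share is given here for those of E0771. Promoter windows are RefSeq's on GRCm38.p6, from 250 bases before to 50 after the start. Results for some members of the lists are not reported here.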

Additional observations from a re-analysis of the deposited data

Results flagged for a closer look

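For 37 genes, each listed here with its value, the effect of Y238A over empty vector in AT-3 differed from that in E0771 in a test of the difference itself, edgeR's quasi-likelihood interaction with Benjamini-Hochberg adjustment over all genes, with adjusted p of 0.00968 or less. Apart from Srf, these genes had been named for their extreme fold changes in AT-3 or for the smallest p of this same difference. That they passed is therefore no separate result. Over all genes tested the difference passed for 32.3%. The construct was also less abundant in E0771, and line and construct level cannot be told apart. Each value is the log2 effect in AT-3 minus that in E0771. The difference was positive for Slc34a2 (7.39, from 10.67 in AT-3 and 3.28 in E0771), Hoxb13 (6.44, from 7.62 in AT-3 and 1.17 in E0771), Rsad2 (3.80, from 6.12 in AT-3 and 2.32 in E0771), Rnf165 (4.74, from 6.01 in AT-3 and 1.27 in E0771) and Myh14 (5.36, from 5.72 in AT-3 and 0.36 in E0771). The fitted values of Slc34a2 depend on the prior count, since its AT-3 empty vector libraries held 0 counts. Positive differences were also found for Fgfbp1 (4.59, from 5.32 in AT-3 and 0.73 in E0771), Orm1 (4.58, from 5.24 in AT-3 and 0.66 in E0771), Gchfr (4.02, from 5.12 in AT-3 and 1.10 in E0771), Glt8d2 (3.34, from 4.96 in AT-3 and 1.62 in E0771) and Apol9a (2.93, from 4.77 in AT-3 and 1.84 in E0771). Further positive values belonged to Col5a3 (2.69, from 3.55 in AT-3 and 0.86 in E0771), Avpi1 (2.37, from 2.70 in AT-3 and 0.32 in E0771), Shc1 (1.48, from 1.65 in AT-3 and 0.17 in E0771), Ly6a (2.18, from 3.97 in AT-3 and 1.79 in E0771) and Xdh (1.70, from 2.12 in AT-3 and 0.42 in E0771). The last positive values were those of Gamt (2.83, from 3.48 in AT-3 and 0.66 in E0771), Dnajb11 (1.87, from 2.28 in AT-3 and 0.41 in E0771) and Cpt1a (1.88, from 1.89 in AT-3 and 0.01 in E0771).

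Among negative differences were Srf (-0.74, from -1.0 in AT-3 and -0.26 in E0771), Cdh15 (-3.77, from -4.56 in AT-3 and -0.78 in E0771), Krt7 (-3.06, from -3.46 in AT-3 and -0.40 in E0771) and Gli1 (-3.46, from -3.26 in AT-3 and 0.20 in E0771). The value was below 0 also for Lipg (-2.41, from -3.07 in AT-3 and -0.66 in E0771), Myl9 (-2.0, from -2.81 in AT-3 and -0.81 in E0771), Ak5 (-2.79, from -2.74 in AT-3 and 0.06 in E0771) and Fbn2 (-5.34, from -2.73 in AT-3 and 2.61 in E0771). Lower in AT-3 as well were Klhl23 (-2.41, from -2.65 in AT-3 and -0.24 in E0771), Igf2 (-3.42, from -2.60 in AT-3 and 0.82 in E0771), Spry1 (-2.77, from -2.57 in AT-3 and 0.21 in E0771) and Pdlim5 (-0.97, from -1.0 in AT-3 and -0.03 in E0771). The remaining negative values belonged to Slc2a1 (-0.80, from -0.78 in AT-3 and 0.02 in E0771), Asns (-1.61, from -1.44 in AT-3 and 0.17 in E0771), Nexn (-2.0, from -2.17 in AT-3 and -0.17 in E0771) and Irgm1 (-1.54, from 0.22 in AT-3 and 1.76 in E0771). Last came Gcat (-1.12, from -1.35 in AT-3 and -0.22 in E0771), Glipr2 (-1.48, from -1.59 in AT-3 and -0.11 in E0771) and Ddah2 (-2.83, from -1.92 in AT-3 and 0.91 in E0771). Carried-over wild-type transcript was estimated at 44.8%, 45.2% and 38.4% of the AT-3 Y238A level for Myl9, Igf2 and Klhl23, and its part in these values was not tested.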

How the results depend on the processing

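With the same data, DESeq2 called 3735 genes higher, 4316 lower and 5426 different between lines, against 3780, 3968 and 4772 in the edgeR analysis. Leaving out 1 of the 6 AT-3 libraries compared at a time gave 3185 to 3462 higher and 3564 to 4048 lower. Leaving out 1 of 12 Y238A and empty vector libraries of both lines gave 4163 to 5255 different. Fitting the 6 libraries alone gave 4490 higher and 4493 lower, and leaving out the 4 libraries of highest carry-over gave 3091, 4064 and 3800. Library totals in place of TMM gave 3959 higher and 3797 lower. These counts stayed within 1.5 times those of the edgeR analysis. Asking also for an absolute log2 fold change of at least 1 left 1128 higher, 509 lower and 947 different, fewer by construction. Same-numbered libraries of the groups had correlations of 0.103, 0.017 and 0.094 in their deviations from the group means, so they were not treated as paired, although each library correlated best with its own number. With a replicate block 3829 genes were higher, 4025 lower and 4925 different. For the 179 genes named by rule, all called, 2845 of 2854 values under the alternatives kept direction and side of the threshold, 9 lost the call, all of Mrtfa, and 0 reversed. For 91 other genes named in the text, 72 of them called, 1381 of 1444 values kept both, 21 values of 9 called genes lost the call, and 34 values of 11 uncalled genes gained one. The 8 reversed values were of 3 uncalled genes near 0. Leaving out 1 library at a time, Cdh1 (0.0925) ranged over -0.1003 to 0.3428, Epcam (-0.0365) over -0.3372 to 0.1561 and Ifnz (0.3306) over -0.0812 to 0.5503, and Ifnz was at -0.1237 without the 4 libraries. Values that moved by over 1.5 times, beside those given with the results, were the construct (16.95, and 16.35 without empty vector replicate 2), Slc34a2 (10.67, and 9.99 with DESeq2), Actc1 and Igf2 (6.35 and -3.25 without the 4 libraries), and St14 (-4.20, and -5.80 without Y238A replicate 2). The cause was not tested. Of 192 list counts and medians under library totals or without Y238A replicate 1, 6 moved, and the integrin median of 0.0048 became -0.0120 without that replicate.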

Other observations

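Other gene families were looked up after the results had been seen. Their counts, here and in the next paragraph, are to be read beside the 25.6% higher and 26.9% lower of all genes. Ly6 genes, which encode small surface proteins anchored by lipid, were higher in 6 of 7 tested and lower in 0, with a median log2 fold change of 3.97. Ly6c1 had 253.6, 266.1 and 298.0 CPM in Y238A libraries and 11.9, 10.8 and 12.7 CPM in empty vector libraries (log2 4.53 ± 0.11, edgeR adjusted p = 2.78e-15), and it may share reads with its copy Ly6c2 (4.35). Ly6a had 231.5, 247.4 and 257.9 CPM with Y238A and 15.9, 15.7 and 15.4 CPM with empty vector. Serpinb genes, encoding intracellular protease inhibitors, were higher in 5 of 10 and lower in 0. Serpinb9b had 42.6, 37.2 and 40.7 CPM with Y238A and 1.88, 1.62 and 2.81 CPM with empty vector (log2 4.27), and Serpinb9 rose by 1.04. Granzyme genes, known from killer lymphocytes, were higher in 4 of 5 at low levels, and Gzmb had 7.29, 9.15 and 11 CPM with Y238A and 0.521, 0.268 and 0.824 CPM with empty vector (log2 4.10, adjusted p = 1.38e-06). Cd74, the invariant chain of MHC class II, had 4.02, 2.82 and 3.09 CPM with Y238A and 0.158, 0.124 and 0.218 CPM with empty vector (log2 4.32), while Ciita, the class II coactivator, did not pass (adjusted p = 0.0948, and 0.0342 in the 6 libraries alone).

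Beside the ribosomal proteins, 44 of 65 translation initiation and elongation factors were lower and 3 higher, with a median of -0.23. Eef1a1, the most abundant, had 5838, 5953 and 6126 CPM in Y238A libraries and 7985, 8137 and 8161 CPM in empty vector libraries (log2 -0.44, adjusted p = 4.58e-07). Proteins of mitochondrial ribosomes were lower in 29 of 75 and higher in 14. Of 17 folding enzymes and DnaJ chaperones of the endoplasmic reticulum 9 were higher and 2 lower. P4hb, a disulphide isomerase, had 2017, 2069.5 and 2085 CPM with Y238A and 936.8, 989.4 and 1025 CPM with empty vector (log2 1.06, adjusted p = 1.22e-12), and Dnajb11 rose by 2.28, whereas Pdia5 fell by 0.56 and Pdia6 by 0.25. Replication-dependent histone genes were higher in 19 of 52 and lower in 0 while 39 of 57 S-phase genes were lower. These transcripts mostly lack a poly(A) tail, the library kit selects mRNA, and the highest level of any was 23.7 CPM, so the share of tailed histone transcripts and their total level cannot be told apart here.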
